A study of Mus musculus with 12 samples.

Results

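The genes described here are the tumour necrosis factor (TNF) superfamily: its secreted or membrane-bound ligands, their receptors, and the TNF receptor-associated factors (TRAFs) that carry the signal into the cell. They were chosen from the deposited gene table by symbol, as Tnf, Lta, Ltb, Cd40, Cd70, Ltbr and numbered Tnfsf, Tnfrsf and Traf genes. This gave 43 of the 57180 rows: 15 ligands, 20 receptors, 7 TRAF genes and Tnfsf13os, a transcript named as opposite in strand to Tnfsf13. RNA was sequenced from 2 mouse tumour cell lines. MB49 derives from bladder cancer, and KPC from a pancreatic ductal adenocarcinoma. Each line had 3 control libraries and 3 from cells given 8 Gy of radiation and collected after 48 h of culture. The labels give the genotype of both lines as WT and name no other agent or allele. No culture time is stated for controls, so its effect and that of the dose cannot be told apart. The design text of the series also speaks of cells made senescent, while each library's label reads only control or 8 Gy.

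Ligands of this family act as trimers on a neighbouring cell or after being shed. Receptors with an intracellular death domain can recruit FADD and caspase-8 to start cell death, many of the others bind TRAF proteins directly, and decoy receptors take up ligand without signalling. TRAF2, TRAF3, TRAF5 and TRAF6 are ubiquitin ligases or scaffolds that, with the cIAP and linear ubiquitin ligases, control the classical and alternative NF-kappaB pathways. On tumour cells, members such as CD40, the CD137 ligand and TRAIL are known for their contact with T cells and other immune cells.

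The 12 libraries held 19005991 to 26337928 counts, of which the 43 genes took 0.160 to 0.276%. Correlations between replicates were 0.988 to 0.997, and nothing in the labels says that replicates were separate cultures, so p-values measure the spread between these libraries, which may be technical. MB49 control replicate 3 stood somewhat apart, and in KPC control replicate 1 the ribosomal RNA row Rn18s-rs5 took 5.11% of counts. The defining immune marker Ptprc had 1 count in all 12 libraries, and Cd8a, Ncr1 and Klrb1c had none. The summed level of the 16 immune markers was 0.519 to 1.37 CPM (counts scaled to library size) in MB49 controls and 4.67 to 4.91 after 8 Gy, and 1.90 to 2.49 in KPC controls and 4.64 to 4.94 after 8 Gy. Most of this came from Cd79a, Ly6g and Csf1r. The 6 stromal and endothelial markers, among them Dcn and Pdgfrb, summed to 48.8 to 59.5 CPM in MB49 controls and 139 to 206 after 8 Gy, and to 108 to 153 in KPC controls and 47.7 to 53.3 after 8 Gy. The part of such cells or programmes in the results was not tested. The urothelial markers Upk1b and Upk3a had 3 and 1 counts in all, so MB49 was near zero in them, while the urothelial factor Gata3 stood at 14.2 CPM in MB49 controls and 16.3 CPM in KPC controls. The pancreatic or ductal markers Krt19, Pdx1 and Foxa2 were higher in KPC controls, at 80.7, 76.7 and 11.8 CPM against 3.85, 17.3 and 0 CPM in MB49 controls, and the epithelial marker Epcam was near zero in KPC, at 0.19 CPM in controls. In bulk RNA, fewer cells of a type and less RNA per cell cannot be told apart.

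Most of the expressed family moved after 8 Gy, as did most genes. Of the 43, 27 passed the filter on low counts: 8 ligands, 11 receptors, all 7 TRAF genes and Tnfsf13os. A gene is called here at a Benjamini-Hochberg adjusted p under 0.05, by edgeR's quasi-likelihood test over the 14362 genes tested. In MB49, 11 of the 27 were called higher after 8 Gy, beside 35.3% of all genes tested, and 7 were called lower, beside 31.6%. In KPC, 14 were called higher, beside 31.3% of all genes, and 8 were called lower, beside 32.0%. The median log2 fold change of those tested was 0.37 in MB49 and 0.55 in KPC, against 0.04 and -0.01 over all genes. In MB49 the median of all tested genes varied with gene length. It was 0.64 for genes of a length like Tnfsf13os and Tnfrsf12a, and 0.34 for a length like Ltb, Tnfsf9, Tnfsf12 and Tnfsf13. For a length like Tnfsf15, Traf3 and Traf6 it was -0.28. In KPC the first and last of these medians were -0.06 and -0.09. The KPC response exceeded the MB49 response in 9, beside 20.9% of all genes, and lay below it in 6, beside 22.0%. KPC controls were above MB49 controls in 6, beside 33.0%, and below in 16, beside 34.4%. The libraries of the groups did not overlap for 18 of the 27 in MB49 (67.3% of all genes tested), 22 in KPC (69.7%) and 21 between the controls (68.6%). The MB49 and KPC responses share no library, while the difference between them and the comparison of controls reuse the control libraries of both.

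The same direction was called in both lines for 13 genes: 8 rose in both and 5 fell in both. Opposite directions were called for 2, Tnfrsf1b and Tnfsf13os. The MB49 call of Tnfsf13os was lost in several alternatives, as given below. A further 1 rose and 2 fell in MB49 without a call in KPC, and 6 rose and 1 fell in KPC without a call in MB49.

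**Figure D1:**
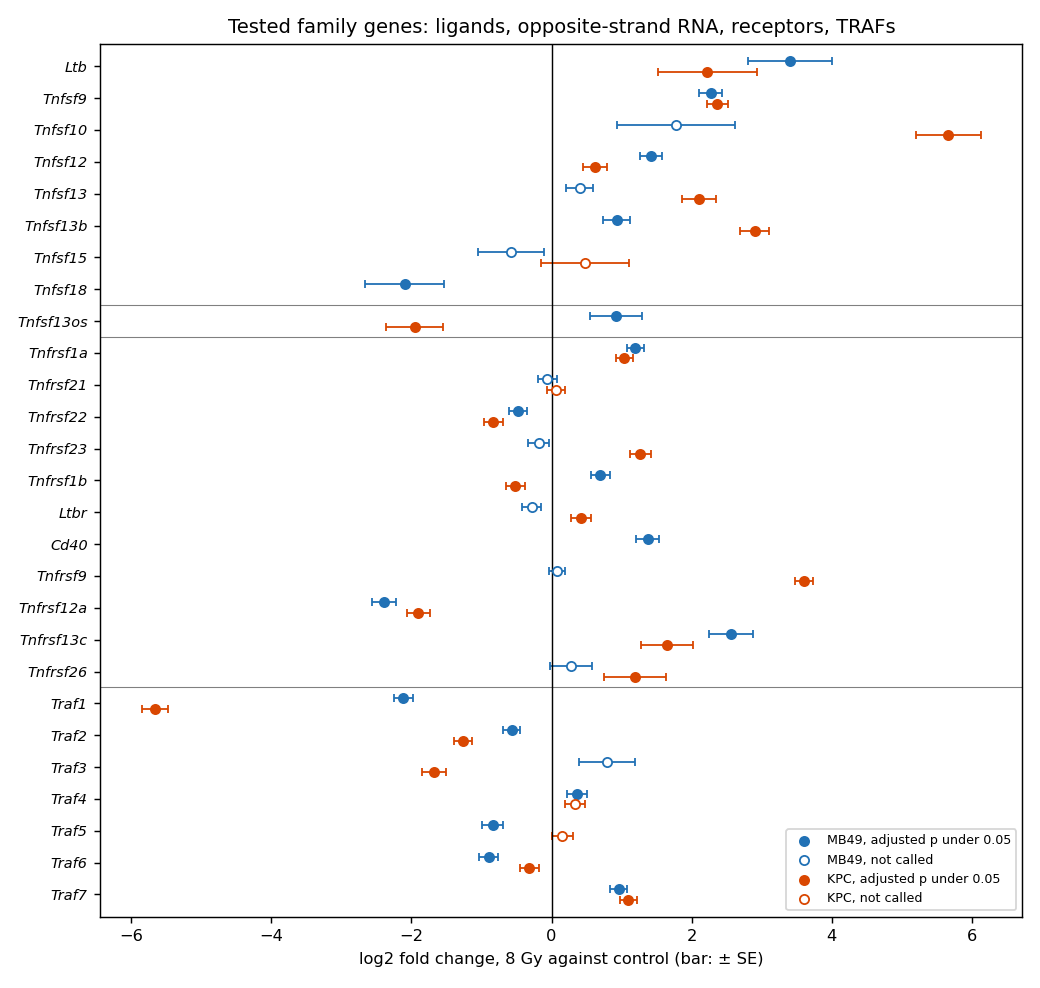
Log2 fold change of 8 Gy against control (x axis, bar ± SE) for the 27 tested genes (y axis), in MB49 (blue) and KPC (orange), with filled points for calls and grey lines between ligands, the opposite-strand RNA, receptors and TRAF genes. The KPC points of Cd40 and Tnfsf18 are left out because the KPC controls held 1 and 0 counts. Tnfrsf12a, Tnfrsf22, Traf1, Traf2 and Traf6 lie left of 0 in both lines with filled points.

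Among the ligands, 4 rose and 1 fell in MB49, and 6 rose and none fell in KPC, of 8 tested. Tnfsf9, which encodes the CD137 ligand, a co-stimulator of T cells, rose in both lines. Its level was 3.16, 2.82 and 4.17 CPM in the MB49 controls and 18.2, 14.8 and 15.9 CPM after 8 Gy. In KPC it was 8.74, 7.67 and 7.39 CPM in controls and 38.8, 39.3 and 45.0 CPM after 8 Gy. All irradiated libraries lay above all controls of their line. The log2 fold changes were 2.27 ± 0.16 (SE, adjusted p = 1.66e-09) in MB49 and 2.37 ± 0.15 (adjusted p = 5.26e-10) in KPC, and their difference of 0.10 ± 0.22 was not called (adjusted p = 0.758). KPC controls stood above MB49 controls by 1.23 ± 0.16 on the log2 scale.

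Tnfsf13b, the B cell survival factor BAFF, rose in both lines and rose further in KPC. MB49 libraries went from 4.0, 4.62 and 4.64 CPM in controls to 9.03, 8.44 and 7.79 CPM after 8 Gy, a log2 change of 0.93 ± 0.19 (adjusted p = 0.000328). KPC libraries went from 1.83, 1.05 and 1.55 CPM to 10.6, 9.67 and 12.9 CPM, a change of 2.90 ± 0.21 (adjusted p = 2.27e-09). The groups did not overlap in either line. The KPC response was larger by 1.97 ± 0.28 (adjusted p = 3.05e-05), and KPC controls differed from MB49 controls by -1.58 ± 0.21.

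Tnfsf13, which encodes APRIL, a ligand related to BAFF, rose in KPC, where controls held 1.25, 0.561 and 0.858 CPM and irradiated libraries 3.62, 4.08 and 3.72 CPM. The KPC change was 2.10 ± 0.24 (adjusted p = 8.73e-07). In MB49 the controls held 7.05, 5.86 and 6.90 CPM and the irradiated libraries 8.46, 9.89 and 7.79 CPM. Those groups did not overlap, but the difference of 0.40 ± 0.20 was not called (adjusted p = 0.0842). The MB49 median of tested genes of like length was 0.34. The KPC response was larger by 1.70 ± 0.31 (adjusted p = 0.000378).

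Tnfsf12 encodes TWEAK, the ligand of Tnfrsf12a. It rose in MB49 from 14.8, 12.5 and 14.1 CPM to 37.5, 40.5 and 32.6 CPM, and in KPC from 5.74, 4.98 and 3.88 CPM to 6.55, 7.16 and 8.87 CPM. The groups did not overlap in either line. The changes were 1.42 ± 0.16 (adjusted p = 4.51e-07) and 0.62 ± 0.17 (adjusted p = 0.00401). Under scaling by library totals alone the KPC value was 0.24 (adjusted p = 0.179). The KPC response was smaller, by a log2 difference of -0.79 ± 0.23 (adjusted p = 0.0104), and without KPC control replicate 1 this difference was -0.55 (adjusted p = 0.0665). The median difference of genes of like length was -0.25.

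Tnfsf12 and Tnfsf13 are neighbours, and the table also lists the readthrough gene Tnfsfm13, with 29 to 55 counts in the KPC libraries and 91 to 236 in the MB49 libraries, so reads may be shared among these 3 rows. Tnfsf13os stood at 0.400, 0.660 and 1.04 CPM in MB49 controls and 1.04, 1.5 and 1.40 CPM after 8 Gy, where the groups touched, and at 1.29, 0.936 and 1.47 CPM in KPC controls and 0.347, 0.304 and 0.286 CPM after 8 Gy, where they lay apart. It rose by 0.92 ± 0.37 in MB49 (adjusted p = 0.0344), a call that was lost without any one of MB49 control replicates 1 (0.63, adjusted p = 0.165) and 2 (0.88, adjusted p = 0.0872), MB49 8 Gy replicates 2 (0.81, adjusted p = 0.109) and 3 (0.87, adjusted p = 0.0793), or KPC control replicate 1 (0.83, adjusted p = 0.0625). The MB49 call was also lost with DESeq2 (0.92, adjusted p = 0.0618) and under library totals alone (0.63, adjusted p = 0.138). Without the filter the value was 0.80 (adjusted p = 0.149), and among only the MB49 libraries 0.84 (adjusted p = 0.0704). The MB49 median of tested genes of like length was 0.64. In KPC, Tnfsf13os fell by 1.96 on the log2 scale (SE 0.41, adjusted p = 0.000512). The responses differed by -2.88 ± 0.55 (adjusted p = 0.000525), beside a median difference of -0.72 for genes of like length. Whether counting used strand is unstated here, so Tnfsf13 and Tnfsf13os may share reads. Deposited counts were not whole in 12 libraries for Tnfsf12 and Tnfsf13, and in 10 for Tnfsf13os. The part of read sharing in these values was not tested.

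Tnfsf10, which encodes the death ligand TRAIL, was near zero in every group except irradiated KPC. The KPC controls held 1, 2 and 2 counts (0.0416, 0.0749 and 0.0817 CPM) and the irradiated libraries 63, 94 and 65 counts (3.13, 4.08 and 3.72 CPM), a change of 5.67 ± 0.46 (adjusted p = 1.14e-08). MB49 libraries held 2 counts in all 3 controls together and 6 after 8 Gy. The difference between the responses was 3.89 ± 1.38 (adjusted p = 0.0402). With so few MB49 counts this fitted value depends on the prior count, and its call was lost without MB49 control replicate 2 (3.60, adjusted p = 0.188), MB49 control replicate 3 (3.5, adjusted p = 0.189), MB49 8 Gy replicate 2 (3.55, adjusted p = 0.0677) or KPC control replicate 1 (3.77, adjusted p = 0.0518).

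Ltb, the membrane anchor of the lymphotoxin heterotrimer, was low throughout and rose in both lines. MB49 libraries held 0.0363, 0.183 and 0.0868 CPM in controls and 1.21, 0.772 and 1.45 CPM after 8 Gy (log2 change 3.41 ± 0.60, adjusted p = 8.22e-05). KPC libraries held 0.166, 0 and 0.0817 CPM and then 0.496, 0.347 and 0.343 CPM (2.23 ± 0.71, adjusted p = 0.011). The groups lay apart in both lines. Without KPC control replicate 2 the KPC value was 1.63 (adjusted p = 0.0502).

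The remaining tested ligands were weak. Tnfsf18, the GITR ligand, fell in MB49 by 2.10 on the log2 scale (SE 0.57, adjusted p = 0.00509), from 46 counts in 3 controls to 8, with no overlap, and had no count in any KPC library. KPC controls held 0 counts, and with 3 counts over the group taken as a floor, MB49 controls were 14.8-fold higher. Tnfsf15, an endothelial cytokine that binds Tnfrsf25, stood at 1.34 ± 0.35 CPM (SD, n = 3) in MB49 controls and 0.89 ± 0.44 CPM after 8 Gy, and at 0.26 ± 0.19 and 0.35 ± 0.21 CPM in KPC. It was not called in either line.

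Of the 11 receptors tested, 4 rose and 2 fell in MB49, and 7 rose and 3 fell in KPC. The receptor Tnfrsf12a (Fn14), which binds TWEAK and signals through TRAFs, had the highest level per kilobase of the family in the controls of both lines and fell in both. MB49 controls held 310.5, 261 and 388 CPM and irradiated libraries 55.1, 67.4 and 59.8 CPM, a change of -2.40 ± 0.17 (adjusted p = 1.46e-09). KPC controls held 586, 508 and 417 CPM and irradiated libraries 130.3, 119.6 and 155 CPM, a change of -1.90 ± 0.16 (adjusted p = 2.39e-08). The lowest control lay far above the highest irradiated library of its line. The responses differed by a value, 0.49 ± 0.23, that was not called (adjusted p = 0.0888), though it was 0.72 (adjusted p = 0.0172) without KPC control replicate 1 and 0.63 (adjusted p = 0.0342) without MB49 control replicate 2. It was also called by DESeq2 (0.55, adjusted p = 0.04) and without the filter on low counts (0.62, adjusted p = 0.00756). The median difference of genes of like length was -0.72. Tnfsf12, the ligand of Tnfrsf12a, moved the other way in both lines, as given above.

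Tnfrsf9 (CD137), the receptor for the Tnfsf9 product and best known from activated T cells, rose in KPC and was not called in MB49. KPC controls held 14.1, 14.7 and 14.1 CPM and irradiated libraries 164, 172 and 187 CPM, a change of 3.60 ± 0.13 (adjusted p = 2.48e-13). MB49 held 57.1, 48.0 and 44.4 CPM and then 53.6, 55.6 and 48.6 CPM. Those MB49 groups overlapped, and their difference was 0.08 ± 0.12 (adjusted p = 0.567). The responses differed by 3.52 ± 0.17 (adjusted p = 1.63e-10), and irradiated KPC ended above every MB49 library although KPC controls differed from MB49 controls by -1.80 ± 0.12 on the log2 scale.

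The promoter windows of these receptors are shown because the 2 receptors moved in opposite ways in KPC. Sequences are from RefSeq on GRCm38.p6, another build than the GRCm39 named in the submitters' processing notes, and run from 250 bases before to 50 bases after an annotated start. Both strands were searched for the NF-kappaB consensus, AP-1 (TGANTCA), GAS (TTCNNNGAA) and the ISRE core (GAAANNGAA), and matches are in capitals. The Tnfrsf9 window is that of its downstream annotated start, at chr4:150927749-150928048, plus strand, and the Tnfrsf12a window is chr17:23677400-23677699, minus strand.
Tnfrsf9: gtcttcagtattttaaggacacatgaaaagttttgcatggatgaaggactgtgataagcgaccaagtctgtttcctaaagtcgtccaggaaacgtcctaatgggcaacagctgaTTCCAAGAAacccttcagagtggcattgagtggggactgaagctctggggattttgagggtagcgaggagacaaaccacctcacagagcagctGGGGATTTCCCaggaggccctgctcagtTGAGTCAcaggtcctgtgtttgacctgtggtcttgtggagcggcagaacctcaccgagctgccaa
Tnfrsf12a: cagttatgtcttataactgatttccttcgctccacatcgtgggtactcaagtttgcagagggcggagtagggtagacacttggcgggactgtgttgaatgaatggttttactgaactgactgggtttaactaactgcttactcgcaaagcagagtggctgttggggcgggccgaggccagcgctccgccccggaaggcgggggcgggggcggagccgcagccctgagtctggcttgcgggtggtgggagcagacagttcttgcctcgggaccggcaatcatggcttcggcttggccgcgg
The Tnfrsf9 window held 2 overlapping matches to the NF-kappaB consensus, from -43 to -34 and from -42 to -33 relative to the start, an AP-1 match from -15 to -9 and a GAS match from -136 to -128. The window of its upstream start, and that of Tnfrsf12a, held no match. Of the 43 genes, 34 had a RefSeq window, and 4 of these (Ltb, Tnfrsf8, Tnfrsf9 and Traf3) held the NF-kappaB consensus, beside 4.51% of all 32851 windows. AP-1 was in 5 (7.81% of all windows), GAS in 8 (8.3%) and the ISRE core in 7 (8.56%). A gene was counted if any of its windows matched, and some had a second window. The shares are of single windows, so they are not on the same footing. A match is a run of letters and no evidence of binding.

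Cd40, the receptor through which T cells license antigen-presenting cells, separated the lines. MB49 controls held 30.3, 26.5 and 32.2 CPM and irradiated libraries 77.6, 82.9 and 70.6 CPM, which did not overlap (1.38 ± 0.16, adjusted p = 1.14e-06). KPC controls held 1 count in 3 libraries and irradiated libraries 34, 18 and 15 counts (1.69, 0.781 and 0.858 CPM). The ratio in KPC was 83.1, with a 95% interval of 14.4 to 3330 that covers counting error only, and it was called (adjusted p = 2.88e-07). MB49 controls stood above KPC controls by a ratio of 2220 (95% interval 398 to 87800).

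The TNF receptors divided. Tnfrsf1a, the death domain receptor found on most cells, rose in both lines. MB49 went from 149, 129 and 142 CPM to 344, 349 and 272 CPM (1.20 ± 0.13, adjusted p = 2.33e-07), and KPC from 139.5, 147 and 149.8 CPM to 289, 275 and 333 CPM (1.04 ± 0.13, adjusted p = 1.35e-06). The groups lay apart, and the difference of -0.16 ± 0.18 was not called (adjusted p = 0.505). Tnfrsf1b, the second TNF receptor, which has no death domain and binds TRAF2, rose in MB49 from 164, 141 and 129 CPM to 264, 251 and 189 CPM (0.69 ± 0.13, adjusted p = 0.000216). In KPC it fell from 103, 106 and 105 CPM to 73.4, 66.1 and 79.2 CPM (-0.52 ± 0.14, adjusted p = 0.00286). The groups did not overlap in either line, and the responses differed by -1.22 ± 0.19 (adjusted p = 8.72e-05).

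**Figure D2:**
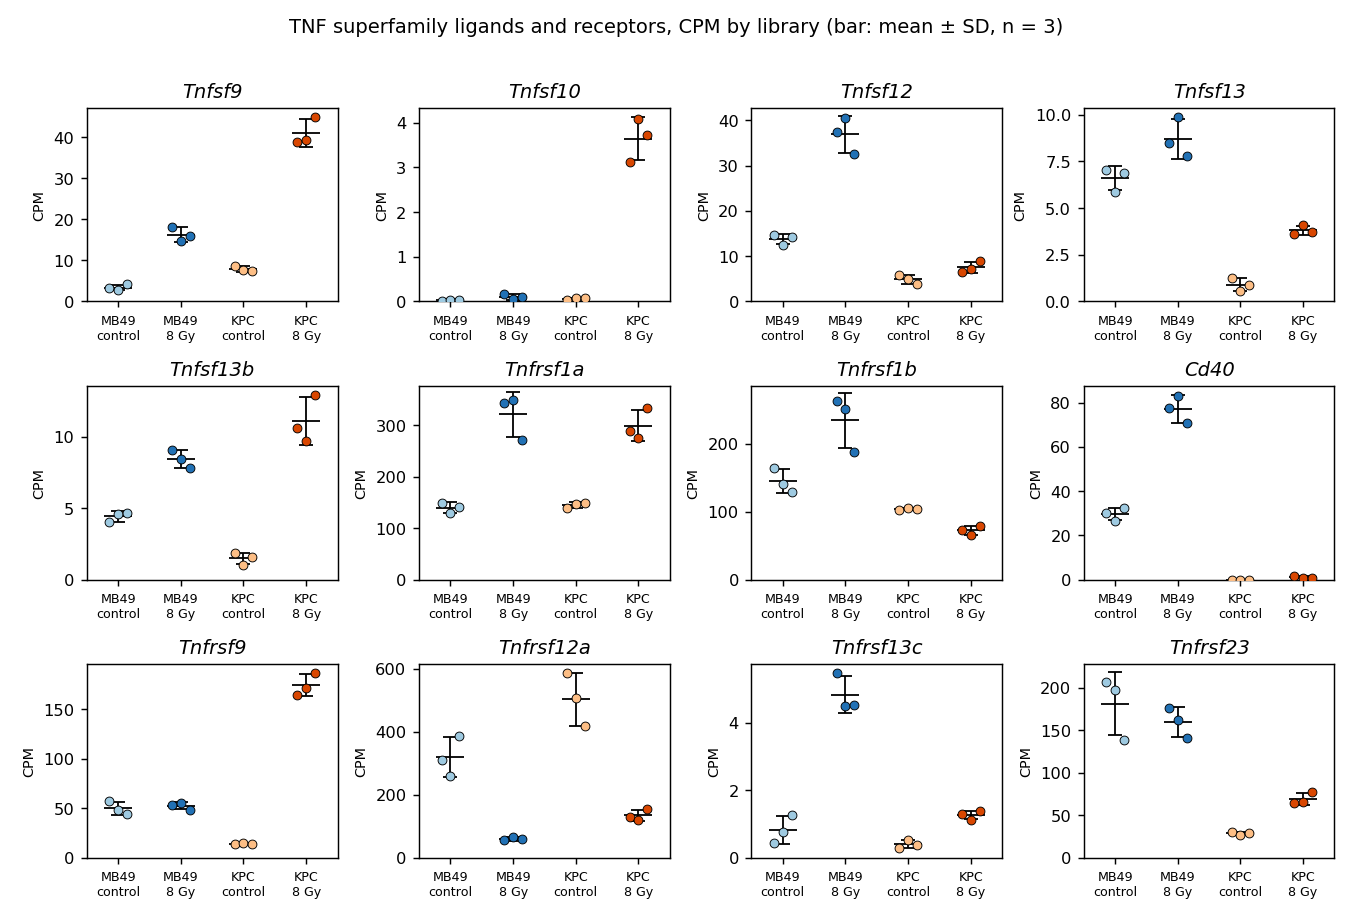
CPM (y axis, starting at 0, own scale in each panel) of 12 ligands and receptors in each library (points) of the 4 groups (x axis), with the group mean ± SD, n = 3. Tnfrsf9 reached 164 to 187 CPM in irradiated KPC only, and Tnfrsf12a was lower after 8 Gy in both lines.

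Tnfrsf13c, the BAFF receptor, rose in both lines beside its ligand. MB49 libraries went from 0.436, 0.770 and 1.26 CPM to 5.47, 4.48 and 4.53 CPM (2.56 ± 0.32, adjusted p = 1.88e-06), and KPC libraries from 0.291, 0.524 and 0.368 CPM to 1.29, 1.13 and 1.37 CPM (1.65 ± 0.37, adjusted p = 0.000937). The groups lay apart in both lines. The B cell marker Cd79a moved with it, from 0.08 to 0.22 CPM in MB49 and from 1.83 to 3.82 CPM in KPC (group means), while Ms4a1, another B cell marker, had 4 counts in all 12 libraries. The part of other cells in this result was not tested. KPC controls differed from MB49 controls by -1.02 ± 0.38 (adjusted p = 0.0257), but the value without MB49 control replicate 3 was -0.60 (adjusted p = 0.174), without KPC control replicate 1 -0.88 (adjusted p = 0.0772) and without KPC control replicate 3 -0.96 (adjusted p = 0.0633). Among only the control libraries it was -1.02 (adjusted p = 0.0687). The responses differed by -0.91 ± 0.50 (adjusted p = 0.156), and by -1.33 (adjusted p = 0.0268) without MB49 control replicate 3.

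Tnfrsf22 and Tnfrsf23, mouse decoy receptors that bind TRAIL without a death domain and are similar copies of each other, moved apart in KPC. Tnfrsf22 fell in both lines, from 147, 146 and 116 CPM to 103, 98.8 and 91.9 CPM in MB49 (-0.48 ± 0.13, adjusted p = 0.00394) and from 57.1, 52.3 and 59.8 CPM to 27.5, 29.8 and 38 CPM in KPC (-0.83 ± 0.14, adjusted p = 4.15e-05). Tnfrsf23 rose in KPC from 30.4, 26.7 and 29.1 CPM to 63.9, 66.0 and 77.6 CPM (1.27 ± 0.15, adjusted p = 1.09e-06). All 3 of these changes were without overlap between libraries. In MB49, Tnfrsf23 was at 207, 198 and 139 CPM and then 175, 161 and 141 CPM, overlapping (-0.19 ± 0.14, adjusted p = 0.269), with a value of -0.35 (adjusted p = 0.0239) without MB49 control replicate 3. Its responses differed by 1.45 ± 0.21 (adjusted p = 3.41e-05). Reads could be split between such copies by the counting, so single values of these genes are uncertain. The deposited counts of both were not whole in 12 libraries.

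Ltbr, the lymphotoxin beta receptor, rose in KPC from 128, 113 and 119.6 CPM to 158, 151 and 174 CPM, apart by a small gap (0.42 ± 0.14, adjusted p = 0.013). That call was lost without KPC control replicate 2 (0.37, adjusted p = 0.061), without KPC 8 Gy replicate 3 (0.36, adjusted p = 0.0601) and under library totals alone (0.04, adjusted p = 0.806). In MB49 it held 113, 91.7 and 112 CPM and then 95.8, 95.8 and 68.1 CPM, overlapping (-0.29 ± 0.14, adjusted p = 0.0774), and it was called lower without MB49 control replicate 2 (-0.38, adjusted p = 0.0331) or KPC control replicate 1 (-0.38, adjusted p = 0.016), without the filter (-0.41, adjusted p = 0.00733), among only the MB49 libraries (-0.37, adjusted p = 0.045) and under library totals alone (-0.59, adjusted p = 0.00038). The responses differed by 0.71 ± 0.19 (adjusted p = 0.00748).

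Tnfrsf26, another member of the mouse Tnfrsf22 cluster, stood at 2.29, 2.82 and 1.95 CPM in MB49 controls and 2.93, 2.07 and 3.59 CPM after 8 Gy, overlapping and without a call. In KPC it held 0.208, 0.187 and 0.327 CPM and then 0.645, 0.694 and 0.286 CPM, also overlapping. It was called higher there (1.19 ± 0.44, adjusted p = 0.0268), but not without KPC control replicate 1 (1.11, adjusted p = 0.0714) or 2 (1.03, adjusted p = 0.0915), or KPC 8 Gy replicate 1 (1.06, adjusted p = 0.0835) or 2 (0.97, adjusted p = 0.114). The call was lost too under library totals alone (0.81, adjusted p = 0.134) and with a replicate block (1.15, adjusted p = 0.0667). Tnfrsf21 (DR6), a death domain receptor, was not called in either line, at 11.4 ± 0.64 and 11.0 ± 1.3 CPM in MB49 and 65.3 ± 10.6 and 68.3 ± 4.3 CPM in KPC (SD, n = 3). KPC controls stood above MB49 controls in it by 2.51 ± 0.14 (adjusted p = 4.03e-11).

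Of the 7 TRAF genes, 2 rose and 4 fell in MB49, and 1 rose and 4 fell in KPC. Traf1, an NF-kappaB target whose product joins TRAF2 on receptors such as CD137, showed the deepest fall of the 27 tested genes in KPC. MB49 went from 654, 589 and 691 CPM to 163, 155 and 127 CPM (-2.12 ± 0.14, adjusted p = 4.79e-10). KPC went from 78.3, 70.5 and 64.7 CPM to 1.74, 1.30 and 1.14 CPM (-5.66 ± 0.18, adjusted p = 6.61e-14). The groups lay far apart in both lines. The responses differed by -3.54 ± 0.22 (adjusted p = 3.53e-09), and KPC controls differed from MB49 controls by -3.18 ± 0.14.

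Traf3, a brake on the alternative NF-kappaB pathway that keeps the kinase NIK low, was near zero in MB49. The 3 MB49 controls held 15, 7 and 6 counts (0.545, 0.257 and 0.260 CPM), and the irradiated MB49 libraries 17, 10 and 10 counts (0.978, 0.482 and 0.466 CPM). KPC controls held 1706, 2064 and 2465 counts (71.0, 77.2 and 101 CPM). KPC controls exceeded MB49 controls by 7.83 ± 0.26 on the log2 scale (adjusted p = 4.7e-14), with no overlap.

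In KPC, Traf3 fell to 27, 23.5 and 27.4 CPM after 8 Gy (-1.68 ± 0.17, adjusted p = 2.07e-07). The MB49 groups overlapped, with a difference of 0.79 ± 0.39 (adjusted p = 0.0862) that was 1.25 (adjusted p = 0.0217) without MB49 control replicate 1. The responses differed by -2.47 ± 0.43 (adjusted p = 0.000246). The nearest genes expressed in KPC on either side of Traf3 in the RefSeq order (GRCm38.p6) were expressed in MB49 too. Rcor1, a chromatin corepressor gene next to it, stood at 62.7 ± 10.2 CPM in MB49 controls and 78.1 ± 16.3 CPM in KPC controls (SD, n = 3), a difference of 0.32 ± 0.15 that was not called (adjusted p = 0.0709). Cdc42bpb, a kinase gene beyond the sparsely expressed Amn, was higher in MB49 controls, at 263 ± 17.7 against 145 ± 33.8 CPM (log2 difference -0.86 ± 0.16, adjusted p = 0.000151). The table gives gene totals only, so which exons of Traf3 held the MB49 reads was not analysed here.

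**Figure D3:**
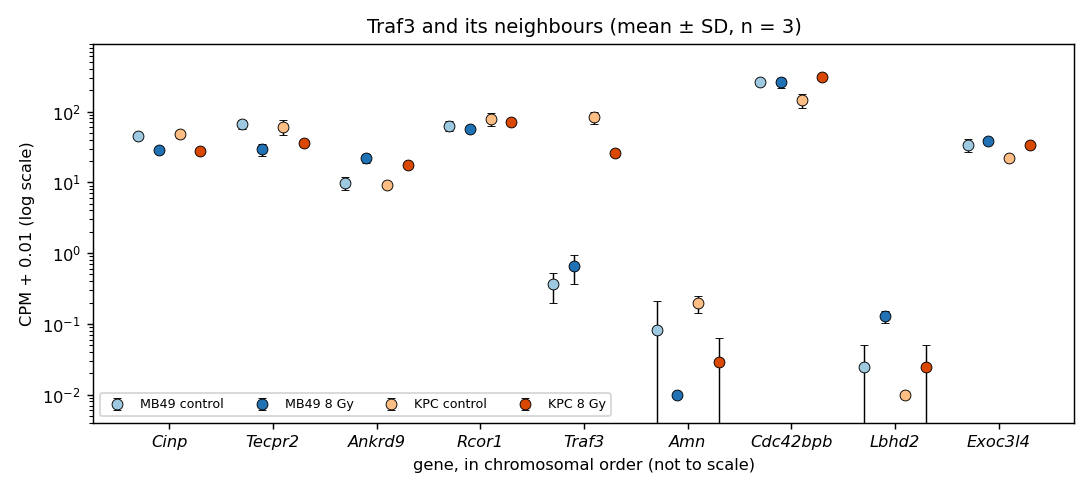
Mean CPM + 0.01 (y axis, log scale, bar ± SD, n = 3) of Traf3 and the 4 genes on each side of it in the RefSeq order (x axis, not to scale) in the 4 groups. Rcor1 and Cdc42bpb stand above 50 CPM in all 4 groups, while Traf3 stands below 1 CPM in both MB49 groups.

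The promoter windows of Traf1 and Traf3 are given because these genes had the deepest KPC fall and the widest gap between the lines' controls among the TRAF genes. They lie at chr2:34961723-34962022, minus strand, and chr12:111166120-111166419, plus strand (RefSeq, GRCm38.p6), with the NF-kappaB consensus in capitals.
Traf1: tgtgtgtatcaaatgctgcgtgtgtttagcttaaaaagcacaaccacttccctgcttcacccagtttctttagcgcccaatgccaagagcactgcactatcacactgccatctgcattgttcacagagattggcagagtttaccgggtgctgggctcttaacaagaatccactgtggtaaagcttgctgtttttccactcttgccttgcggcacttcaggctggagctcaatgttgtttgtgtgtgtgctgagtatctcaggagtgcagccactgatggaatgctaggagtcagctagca
Traf3: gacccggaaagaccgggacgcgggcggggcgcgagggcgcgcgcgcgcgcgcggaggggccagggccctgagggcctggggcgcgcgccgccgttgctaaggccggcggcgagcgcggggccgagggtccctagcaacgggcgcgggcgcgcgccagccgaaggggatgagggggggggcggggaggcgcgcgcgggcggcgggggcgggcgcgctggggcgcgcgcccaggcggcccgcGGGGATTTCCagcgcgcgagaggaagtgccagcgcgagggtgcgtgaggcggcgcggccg
The Traf3 window had a GC content of 84.0% and 59 CpG dinucleotides, against medians of 52.7% and 7 over all windows, and an NF-kappaB consensus match from -10 to -1. The Traf1 window had 48.7% GC, 4 CpG and none of the 4 motifs searched, which says only that those letters are not in this window.

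Traf2, the adaptor shared by many of these receptors, fell in both lines. Its deposited counts were not whole in 11 libraries, and sharing of reads with other rows was not tested. MB49 went from 266, 219 and 244 CPM to 173, 176 and 142 CPM (-0.57 ± 0.12, adjusted p = 0.000556) and KPC from 192, 202 and 198 CPM to 77.2, 77.1 and 92.7 CPM (-1.26 ± 0.12, adjusted p = 1.25e-07). The groups lay apart, and the responses differed by -0.69 ± 0.17 (adjusted p = 0.00405). Between controls, KPC stood lower by a log2 difference of -0.30 ± 0.12 (adjusted p = 0.0397), a call that was lost without MB49 control replicate 1 (-0.23, adjusted p = 0.157) or 3 (-0.30, adjusted p = 0.0619), KPC control replicate 2 (-0.31, adjusted p = 0.0782) or 3 (-0.30, adjusted p = 0.0755), or KPC 8 Gy replicate 1 (-0.30, adjusted p = 0.0564) or 2 (-0.30, adjusted p = 0.0521). With a replicate block it was lost as well (-0.30, adjusted p = 0.0706).

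Traf7, which is built unlike the others and acts with the kinase MEKK3, rose in both. MB49 went from 102, 87.2 and 90.1 CPM to 199, 194 and 151 CPM (0.96 ± 0.12, adjusted p = 2.65e-06) and KPC from 128, 129.7 and 137 CPM to 277, 266 and 300.5 CPM (1.10 ± 0.12, adjusted p = 6.08e-07), both without overlap.

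Traf5 and Traf6 fell in MB49. Traf5, which acts beside TRAF2, went from 10.6, 11.0 and 12 CPM to 6.96, 6.17 and 5.64 CPM (-0.84 ± 0.15, adjusted p = 8.78e-05), apart. In KPC it held 6.57, 5.69 and 6.05 CPM and then 6.40, 7.07 and 6.92 CPM, overlapping and without a call, and the responses differed by 1.00 ± 0.21 (adjusted p = 0.00118). Traf6, which also serves the interleukin-1 and Toll-like receptors, went from 24.6, 27.3 and 20.9 CPM to 13.3, 12.8 and 12.9 CPM in MB49 (-0.90 ± 0.13, adjusted p = 1.41e-05), apart.

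In KPC, Traf6 held 12.6, 15.5 and 15.0 CPM and then 11.3, 11.3 and 12 CPM, also apart, and was called lower at the edge of the threshold (-0.32 ± 0.14, adjusted p = 0.0477). That call was lost on leaving out 8 of the 12 libraries one at a time, with adjusted p values up to 0.162, and with DESeq2's test (-0.27, adjusted p = 0.118). Without the filter (-0.32, adjusted p = 0.148), with a replicate block (-0.32, adjusted p = 0.072) and with DESeq2 size factors (-0.27, adjusted p = 0.106) it was lost too. The responses of Traf6 differed by 0.58 ± 0.19 (adjusted p = 0.0207), or by 0.49 (adjusted p = 0.0594) without MB49 control replicate 2. Under library totals alone the difference was 0.49 (adjusted p = 0.0644).

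Traf4, linked to cell polarity and migration, had the highest mean level per kilobase of the family in irradiated KPC. MB49 went from 194, 149.5 and 159.6 CPM to 247, 231 and 171 CPM, overlapping, and was called higher (0.37 ± 0.15, adjusted p = 0.0347). KPC held 419.9, 358 and 402 CPM and then 474, 473 and 542 CPM, apart, without a call (0.34 ± 0.15, adjusted p = 0.0524). The 2 values differed by -0.03 ± 0.21 (adjusted p = 0.94). The MB49 call was lost without MB49 control replicate 2 (0.28, adjusted p = 0.142) or 3 (0.33, adjusted p = 0.0855), MB49 8 Gy replicate 1 (0.26, adjusted p = 0.17) or 2 (0.32, adjusted p = 0.116), KPC control replicate 1 (0.27, adjusted p = 0.0988) or KPC 8 Gy replicate 1 (0.36, adjusted p = 0.0506). That MB49 call was also lost under library totals alone (0.07, adjusted p = 0.653), without the filter (0.24, adjusted p = 0.174) and among only the MB49 libraries (0.28, adjusted p = 0.138). The KPC value was called without MB49 control replicate 1 (adjusted p = 0.0476) or 3 (adjusted p = 0.0481). It was called too without MB49 8 Gy replicate 3 (adjusted p = 0.0189) or KPC control replicate 1 (0.40, adjusted p = 0.037). DESeq2 also called it (0.39, adjusted p = 0.0176), as did the fits without the filter (adjusted p = 0.0377) and on only the KPC libraries (adjusted p = 0.0121). Over all alternatives the KPC value ran from -0.05 to 0.40.

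**Figure D4:**
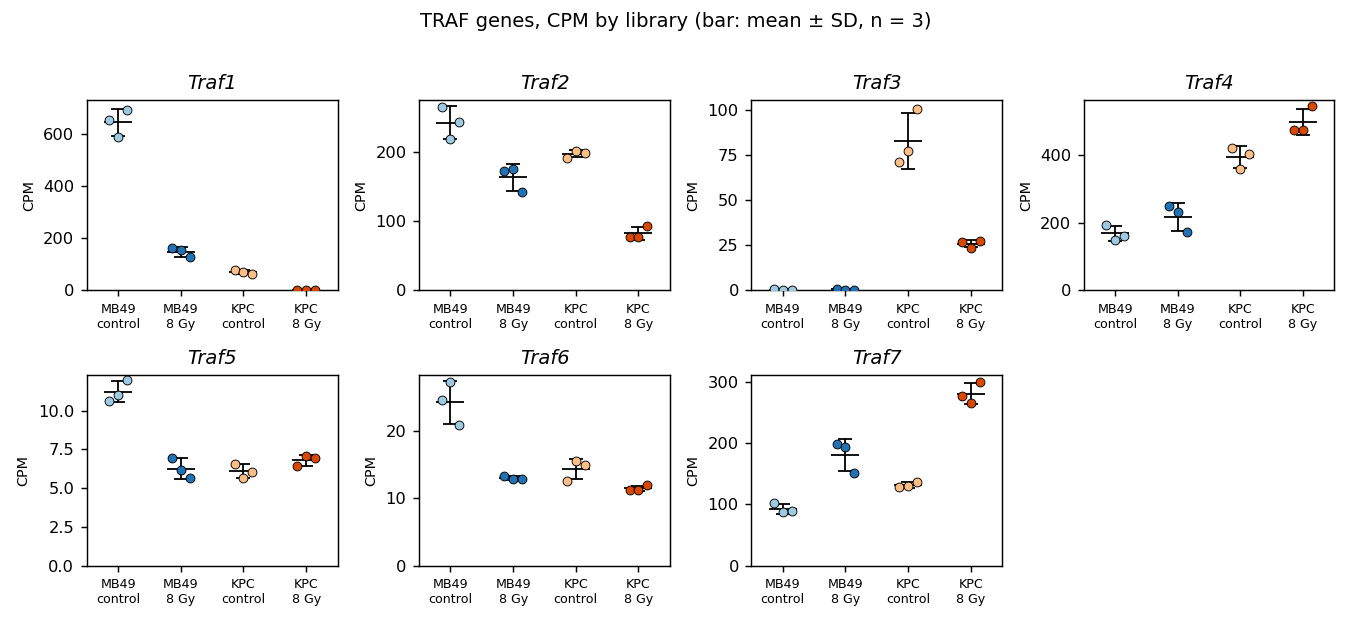
CPM (y axis, starting at 0, own scale in each panel) of the 7 TRAF genes in each library (points) of the 4 groups (x axis), with the group mean ± SD, n = 3. Traf1 was at 1.14 to 1.74 CPM in irradiated KPC, and Traf3 was below 1 CPM in every MB49 library.

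Set against gene length, so that genes can be compared with each other, the order of levels changed after 8 Gy. In CPM per kilobase (mean ± SD, n = 3), MB49 controls were led by Tnfrsf12a (503.5 ± 101), Traf1 (188 ± 15.0) and Tnfrsf23 (123 ± 25.0), and irradiated MB49 by Tnfrsf1a (149 ± 20). KPC controls were led by Tnfrsf12a (793 ± 133) and Traf4 (189 ± 15.4). In irradiated KPC, Traf4 (239 ± 19) and Tnfrsf12a (212 ± 28.4) came first and lay within about their spread of each other, ahead of Tnfrsf1a (139 ± 14.1).

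The 16 members below the filter, 7 ligands and 9 receptors, had 2 to 74 counts in all 12 libraries together and at most 19 in any library. Tnf itself, the founding ligand, had 0 counts in KPC controls and 11 after 8 Gy, 4.55-fold higher against the floor, and 1 count in irradiated MB49. Cd70, the ligand of CD27, had no counts in MB49 controls and 13 after 8 Gy, 5.67-fold higher against the floor, and none in KPC. Tnfrsf25 (DR3), a death domain receptor, had 19 counts in KPC controls, 2 in irradiated KPC (ratio 7.66, 95% interval 1.85 to 67.9) and none in MB49. Tnfrsf11b, the secreted decoy osteoprotegerin, had 32 counts in KPC controls against 2 in MB49 controls (ratio 16.6, 95% interval 4.22 to 143). Tnfrsf8 (CD30) had 28 counts in MB49 controls and none in KPC controls, 9.02-fold higher against the floor. Floors are 3 counts over a group. A fold against a floor takes the higher group's count as it stands, so it is no lower limit. The intervals cover counting error only, and the floors cover no spread between libraries.

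Downstream of the receptors, 39 signalling genes (adaptors, kinases, ubiquitin ligases and NF-kappaB subunits and inhibitors) all passed the filter. In MB49, 8 rose and 17 fell, beside 35.3% and 31.6% of all genes, with a median of -0.24, or -0.27 without Ripk3, which had almost no MB49 reads. In KPC, 15 rose and 9 fell, beside 31.3% and 32.0% of all genes, with a median of 0.14. Under library totals alone, 17 fell in KPC and 5 rose in MB49. The KPC response exceeded that of MB49 in 17 and lay below it in 2, beside 20.9% and 22.0%.

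Of the 3 subunits of the linear ubiquitin ligase, which stabilises TNF receptor complexes, the catalytic Rnf31 (1.92 ± 0.15 in MB49 and 3.03 ± 0.16 in KPC, log2) and its partner Rbck1 (1.20 ± 0.13 and 1.45) rose in both lines. Sharpin was not called in MB49 (0.27, adjusted p = 0.074) or KPC (0.09, adjusted p = 0.565), and was called lower in KPC under library totals alone (-0.29, adjusted p = 0.0318). Ikbkg, the regulatory subunit of the IkappaB kinase (NEMO), also rose, from 29.3 to 88.1 CPM in MB49 and from 28.8 to 80.9 CPM in KPC. Fadd, the death domain adaptor, fell in both, from 30.9 to 3.32 CPM in MB49 (-3.22 ± 0.16, adjusted p = 2.47e-11) and from 28.9 to 4.02 CPM in KPC (-2.84 ± 0.16, adjusted p = 1.02e-10). Nfkbie, an NF-kappaB inhibitor, fell by 2.98 and by 2.09 on the log2 scale.

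The lines parted at other steps. The NF-kappaB subunit Rela fell from 555 to 143 CPM in MB49 (-1.95 ± 0.15, adjusted p = 5.54e-09), more than in KPC (difference 1.32 ± 0.21, adjusted p = 9.44e-05), as did Nfkb1 (-1.43 in MB49, difference 1.07 ± 0.15). Tank, a TRAF-binding scaffold, fell by 1.31 in MB49, more than in KPC (difference 0.80 ± 0.25, adjusted p = 0.0156, or 0.70, adjusted p = 0.0612, under library totals alone). Ripk1, the kinase at the TNF receptor, rose in KPC from 9.14 to 39.9 CPM (2.13 ± 0.14, adjusted p = 7.61e-10) and held 31.8 and 30.3 CPM in MB49, a difference of responses of 2.19 ± 0.19. Tnip1 (1.66) and Tifa (1.55), regulators of NF-kappaB signalling, rose in KPC, each more than in MB49 (differences 1.22 and 1.37). Map3k14, which encodes NIK, the kinase restrained by TRAF3, fell in KPC from 88.2 to 41.1 CPM (-1.10 ± 0.16, adjusted p = 1.45e-05), and the responses differed by -1.43 ± 0.23 (adjusted p = 0.000106). Tab1, a partner of the kinase TAK1, fell in KPC by 1.31 and in MB49 by 0.72, and the responses differed by -0.59 ± 0.18 (adjusted p = 0.0125), or by -0.47 (adjusted p = 0.0616) without the filter on low counts.

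Other named signalling genes moved the same way in both lines with no called difference. Relb, the alternative-pathway subunit, fell by 1.08 in KPC and by 1.26 in MB49 (difference 0.18 ± 0.18, adjusted p = 0.448). Nfkbia, the main NF-kappaB inhibitor, rose by 0.77 in MB49 and 0.73 in KPC (difference -0.04 ± 0.18, adjusted p = 0.909). Adam10, a protease that sheds membrane proteins, rose by 0.86 in MB49 and 0.47 in KPC (difference -0.39 ± 0.21, adjusted p = 0.142). The KPC call of Adam10 was lost without KPC control replicate 1 (0.40, adjusted p = 0.0572) and under library totals alone (0.08, adjusted p = 0.704).

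Among 22 genes known to be induced by TNF through NF-kappaB, 7 rose and 13 fell in MB49 (35.3% and 31.6% of all genes), with a median of -0.42. In KPC, 17 rose and 3 fell (31.3% and 32.0% of all genes), with a median of 1.08, or 1.07 without Il6. The KPC response exceeded that of MB49 in 14 and lay below it in 1 (20.9% and 22.0%). Tnfaip3, Nfkbia, Nfkbie, Nfkb2, Relb, Birc3 and Tnip1 stand in this list and in the signalling list, so the counts of these lists overlap. KPC controls were below MB49 controls in 19 of the 22 and above in 3 (34.4% and 33.0%). The adhesion gene Icam1 rose in KPC from 0.81 to 13.3 CPM (4.02 ± 0.21, adjusted p = 3.64e-11) while it fell in MB49 from 29.7 to 16.5 CPM, and the responses differed by 4.87 ± 0.26 (adjusted p = 6.68e-10). The chemokine gene Ccl2 rose in KPC from 0.11 to 2.85 CPM (4.68 ± 0.43, adjusted p = 6.04e-08) and fell in MB49 from 223 to 112 CPM.

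Several targets fell in MB49: the chemokine gene Ccl20 from 6.02 to 0.07 CPM (-6.37 ± 0.46, adjusted p = 2.25e-09), the cytokine gene Csf2 from 27.5 to 2.00 CPM, the NF-kappaB cofactor Bcl3 by 1.5 and Birc3 (cIAP2) by 1.29. Others rose in both lines, as Vcam1, an adhesion gene, did by 1.71 ± 0.13 in MB49 and 2.09 ± 0.14 in KPC, and Mmp9, a matrix protease, by 1.96 and 1.63. Sod2, the mitochondrial superoxide dismutase, rose by 2.92 in MB49, more than in KPC (difference -1.65 ± 0.18). Tnfaip2 rose by 1.11 in MB49 and 0.97 in KPC, with no called difference. Il6 rose in MB49 from 0.59 to 4.39 CPM and was at 0 in KPC controls and 0.89 CPM after 8 Gy. Lif fell in KPC by 0.68 and in MB49 by 0.35 (adjusted p = 0.0113). Its MB49 call was lost without MB49 control replicate 1 (-0.28, adjusted p = 0.0629).

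**Figure D5:**
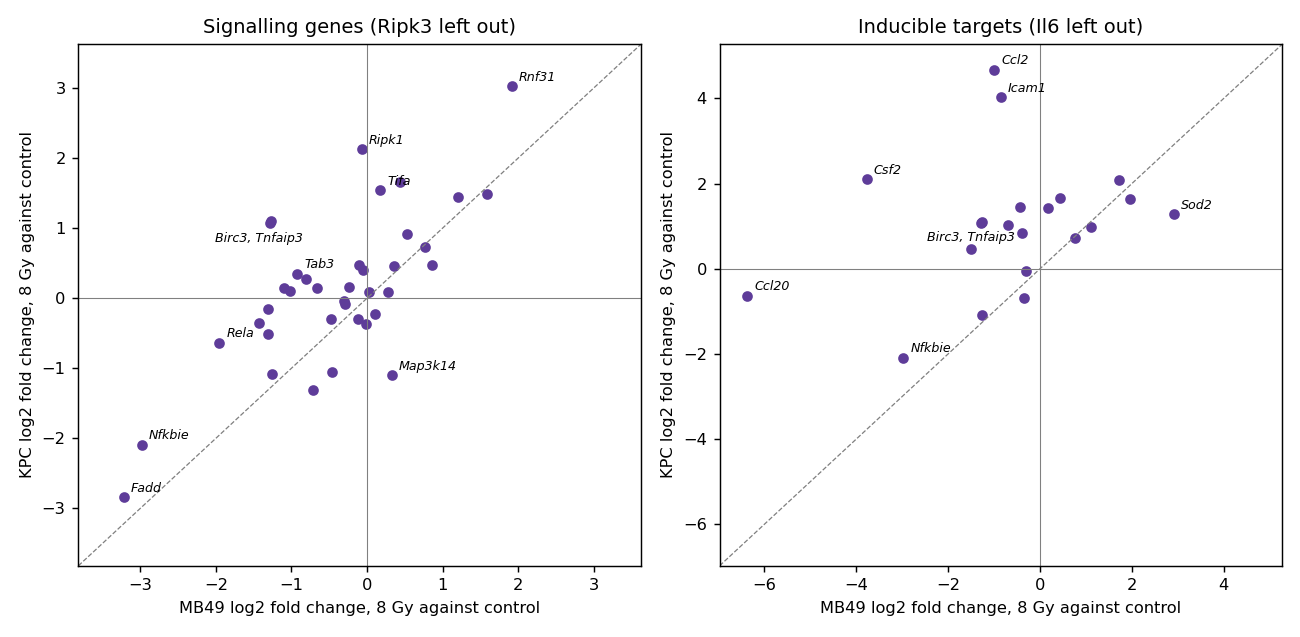
Log2 fold change of 8 Gy against control in MB49 (x axis) and KPC (y axis) for signalling genes (left) and TNF-inducible targets (right), 1 point per gene, dashed line where both are equal. Ripk3 (left) and Il6 (right) are left out because a group had almost no reads. Icam1 and Ccl2 lie at 4.02 and 4.68 in KPC and below 0 in MB49, and Fadd and Nfkbie lie below -2 in both lines.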

How the data were processed

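RNA was extracted with TRIzol and made into libraries with an Illumina stranded mRNA kit, per the labels' protocols. The submitters' processing notes name fastp, HISAT2, StringTie and the build GRCm39, with no versions. The counting tool and its strand setting are not given in the sources used here. In the deposited table stand the authors' estimated counts per gene, and 6.20 to 8.65% of values in a library were not whole, so all were rounded. The authors' group means were not used; their gene length column served for levels per kilobase. Of 57180 rows, 525 had no symbol (0.184 to 0.449% of a library's counts) and stayed in the library sizes.

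edgeR's filterByExpr by group kept 14362 genes. The quasi-likelihood fit was robust, took all 12 libraries with a term for each of the 4 groups and TMM factors of 0.829 to 1.18, and had 8 residual degrees of freedom; the common dispersion corresponds to a biological coefficient of variation of 0.150. P-values are 2-sided, adjusted by Benjamini-Hochberg over all genes tested, and called under 0.05. Standard errors were derived from the fold change and its F statistic, and CPM uses the TMM factors. The pipeline was tested on simulated data.

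Groups came from the sample titles. The members and gene lists were chosen with earlier results of these data known, and the lists are described by counts and medians. Members called in either line and at 1 CPM or more in any group are given by library; from a list the text names at most 5 risers and 5 fallers a line, the largest among those called with 1 CPM or more; genes named for low counts, the neighbours of Traf3 and the values given where a second line or comparison is set beside a named gene were chosen after their values were seen. Genes matching the naming rule numbered 2 more and are not reported here. Replicates differed by more than sampling noise (chi-square over degrees of freedom 7.46 to 144). Alternatives were other scalings, no filter, only the groups compared, a replicate block, DESeq2, leaving out each library and, chosen after seeing the data, leaving out MB49 control replicate 3 with KPC control replicate 1. Promoter windows were matched by symbol (34 of 43). Fits used R 4.3.3 with edgeR 4.0.16 and limma 3.58.1; DESeq2 was version 1.42.0.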

Additional observations from a re-analysis of the deposited data

Results flagged for a closer look

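The response to 8 Gy differed between KPC and MB49, by a test of the difference itself, in 15 of the 26 family genes with a fold in both lines, beside 20.9% of all genes with a larger and 22.0% with a smaller KPC response. On the log2 scale, KPC minus MB49, the difference was 4.51 for Cd40, a fitted value that depends on the prior count because KPC controls held 1 count, and 3.89 for Tnfsf10, which rests on 2 counts in MB49 controls. It was -3.54 for Traf1 and 3.52 for Tnfrsf9, the widest among well-counted genes. It was -2.88 for Tnfsf13os and -2.47 for Traf3. It was 1.97 for Tnfsf13b, 1.70 for Tnfsf13 and 1.45 for Tnfrsf23. It was -1.22 for Tnfrsf1b, 1.00 for Traf5 and -0.79 for Tnfsf12. The smallest were 0.71 for Ltbr, -0.69 for Traf2 and 0.58 for Traf6. The calls of Tnfsf10, Tnfsf12 and Traf6 were each lost in at least 1 alternative.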

How the results depend on the processing

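Over the alternatives run, the number of family genes called stayed within 1.5 times its value: 9 to 12 higher and 7 to 10 lower in MB49, 11 to 17 and 7 to 9 in KPC, 8 to 10 and 5 to 7 for the difference of responses, and 6 to 8 and 14 to 17 between the controls. Single calls held in every alternative for 16 of 18 in MB49, 17 of 22 in KPC, 12 of 15 for the difference and 20 of 22 between controls. Scaling by library totals alone moved the median of all genes to -0.23 in MB49 and -0.39 in KPC, and that of the difference to -0.11; under it the KPC values of Tnfrsf21 and of Sharpin, neither called in the values reported, turned to -0.33 (adjusted p = 0.0330) and -0.29 (adjusted p = 0.0318). A change of sign where no value was called is not counted as a reversal. Under the same scaling, 5 signalling genes were called higher in MB49 (8 reported), 17 lower in KPC (9 reported) and 2 targets lower in the difference (1 reported); without the filter, 1 signalling gene was lower in the difference (2 reported).

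Same-numbered libraries showed no steady pairing (correlations of their deviations 0.389, -0.410 and 0.104 in MB49, and -0.224, -0.009 and 0.044 in KPC), and not every library correlated best with its own number. So few libraries cannot exclude pairing. A fit with the replicate number as a block called 12 higher and 7 lower in MB49, 14 and 7 in KPC, 8 and 6 for the difference, and 6 and 15 between controls. Only the groups compared gives no value for the difference of responses. Genes with a few counts per library, such as Tnfsf10 in MB49, are limited by depth.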

Other observations

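Family members whose symbols fall outside the numbered series add to the account. Of 9 such genes, 4 passed the filter. Fas, the death receptor and a p53 target, rose from 11.0 to 50.8 CPM in MB49 (2.21 ± 0.16, edgeR adjusted p = 2.35e-09) and from 13.6 to 26.3 CPM in KPC (0.95 ± 0.16, adjusted p = 4.89e-05), with a smaller rise in KPC (difference -1.26 ± 0.22, adjusted p = 0.000245). Eda2r, the ectodysplasin A2 receptor and another p53 target, rose in both lines, by 0.98 ± 0.14 and 1.16 ± 0.15. Ngfr, the low-affinity neurotrophin receptor, rose in MB49 from 0.85 to 24.6 CPM (4.85 ± 0.28, adjusted p = 1.06e-10) and stood at 0.21 and 0.09 CPM in KPC. Relt, an orphan receptor, fell in KPC (-1.03 ± 0.15, adjusted p = 1.46e-05) and in MB49 (-0.35 ± 0.15, adjusted p = 0.0487), the latter lost in 10 alternatives, with the smallest value, -0.22 (adjusted p = 0.191), without MB49 8 Gy replicate 3.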
